A study of Mus musculus with 8 samples.

Results

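Interferon-stimulated genes are the transcripts that cells switch on after interferon binds its receptor. The type I receptor signals through the kinases Jak1 and Tyk2, and Stat2 and Irf9 belong to the complex that then binds a short promoter element, the interferon-stimulated response element, to turn on antiviral genes. In fat this programme is carried by adipocytes, by cells of the vessels and stroma and by resident immune cells, and a low level of it is present without infection. The 9 genes described here, of 18022 in the count table, were chosen by symbol: Irf9, Stat2 and Irf7, which control the response, and Ifit1, Ifit2, Ifit3, Isg15, Rsad2 and Bst2, which act against viruses. All 9 passed the filter on low counts, which left 14556 genes for testing.

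Poly(A) RNA from subcutaneous fat was sequenced in 8 libraries, 1 per mouse. There were 4 libraries labelled KO, from mice named Pkd1adipo delta/delta for loss of protein kinase D1 in adipocytes, and 4 labelled WT, from mice carrying Pkd1(flox/flox). All mice were C57BL/6J, back-crossed 4 times; no source used here states the age, the sex or the promoter that drives the deletion. A name such as KO2 gives a library's label and replicate number.

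Sequencing depth was even, at 2751020 to 2873457 reads in libraries labelled KO and 2617755 to 2816661 in those labelled WT. Prkd1, the gene of protein kinase D1, stood at 26.1 to 37.1 CPM (counts-per-million reads) in libraries labelled KO and 26.6 to 33.6 CPM in those labelled WT (log2 fold change 0.06 ± 0.15, SE). Whole-tissue counts over the whole gene therefore gave no check of the labels, and every direction below is between libraries as labelled. All 10 adipocyte markers were present, with summed levels of 16250 to 22270 CPM in libraries labelled KO and 17420 to 20420 CPM in those labelled WT. Markers of other tissues were uneven. Skeletal muscle markers (17 of 18 in the table) summed to 3112, 1740, 343.9 and 3224 CPM in KO1 to KO4, against 78.8 to 475.4 CPM in libraries labelled WT, and liver markers (10 of 10) reached 1012 CPM in KO2, 1991 in WT1 and 1660 in WT4. T and NK cell markers (12 of 14) summed to 16.6 to 21.8 CPM in libraries labelled KO and 26.3 to 30.7 CPM in those labelled WT, and Cd3e, which defines T cells, had 1 to 3 reads against 6 to 9. B cell markers (6 of 8) summed to 42.3 to 61.7 CPM in libraries labelled KO and 64.2 to 128.5 CPM in those labelled WT, most of it Ighm. The part of these cells in the values below was not tested. In whole tissue, fewer cells of a type and less RNA per cell cannot be told apart.

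The letters of the promoters were not read in choosing the genes. The genes were picked, though, as targets of a response that acts through the interferon-stimulated response element. A high share of matches is therefore not independent support for the set. The core of the response element, GAAA, then any 2 bases, then GAAA, was searched on both strands in RefSeq promoter windows of the build GRCm38.p6, each 300 bases long, from 250 before to 50 after an annotated start. It was found in 6 of the 9 genes, or 66.7%, in 17 of 39 other type I interferon-stimulated genes with a window (43.6%), and in 1079 of all 27025 genes (3.99%). The 6 stretches with matches are shown so that the spacing and number of copies can be compared, 100 bases each, 5′ to 3′ on the strand of the gene, with every match in capitals (TTTC marks a match on the opposite strand).
Ifit1: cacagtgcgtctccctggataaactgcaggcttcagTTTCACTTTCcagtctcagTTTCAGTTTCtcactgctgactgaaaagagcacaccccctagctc
Ifit3: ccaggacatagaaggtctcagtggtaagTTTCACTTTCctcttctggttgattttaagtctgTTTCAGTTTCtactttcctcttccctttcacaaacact
Isg15: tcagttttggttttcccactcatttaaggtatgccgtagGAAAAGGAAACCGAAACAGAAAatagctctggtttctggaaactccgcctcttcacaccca
Rsad2: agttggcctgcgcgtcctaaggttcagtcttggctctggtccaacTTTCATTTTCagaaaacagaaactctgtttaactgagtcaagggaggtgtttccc
Bst2: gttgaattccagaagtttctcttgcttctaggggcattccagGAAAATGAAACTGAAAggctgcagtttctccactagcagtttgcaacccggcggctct
Stat2: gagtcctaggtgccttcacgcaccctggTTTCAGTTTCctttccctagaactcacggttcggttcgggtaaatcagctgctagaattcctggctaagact
The stretch of Ifit1 is chr19:34640749-34640848 on the plus strand, that of Ifit3 chr19:34583345-34583444 (plus), that of Isg15 chr4:156200836-156200935 (minus), that of Rsad2 chr12:26456518-26456617 (minus), that of Bst2 chr8:71537545-71537644 (minus) and that of Stat2 chr10:128270248-128270347 (plus). Ifit1 and Ifit3 each held 2 separate matches, Isg15 3 and Bst2 2 overlapping ones, and Rsad2 and Stat2 1 each. The windows of Ifit2, Irf7 and Irf9 held no match to these letters. A match is a string of letters and not evidence of binding.

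Between the labels, none of the 9 genes passed the threshold. Their log2 fold changes (KO over WT) ran from -0.46 for Rsad2 to 0.28 for Stat2, 4 were above 0 and 5 below, and the median was -0.002, beside 0 over all 14556 genes tested (50.1% of them above 0). In edgeR's quasi-likelihood test with Benjamini-Hochberg adjustment over all genes, 0 of the 9 passed an adjusted p of 0.05, and so did 0 of all genes tested (0%). At an unadjusted p under 0.05 there was 1, Rsad2, where the share over all genes was 4.49%. The libraries of the labels overlapped for all 9, while they did not overlap for 2.92% of genes tested. In the authors' deposited table, which lists 436 of 18022 genes (2.42%) at an adjusted p under 0.05, the smallest adjusted p among the 9 was 0.827, for Rsad2.

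**Figure D1:**
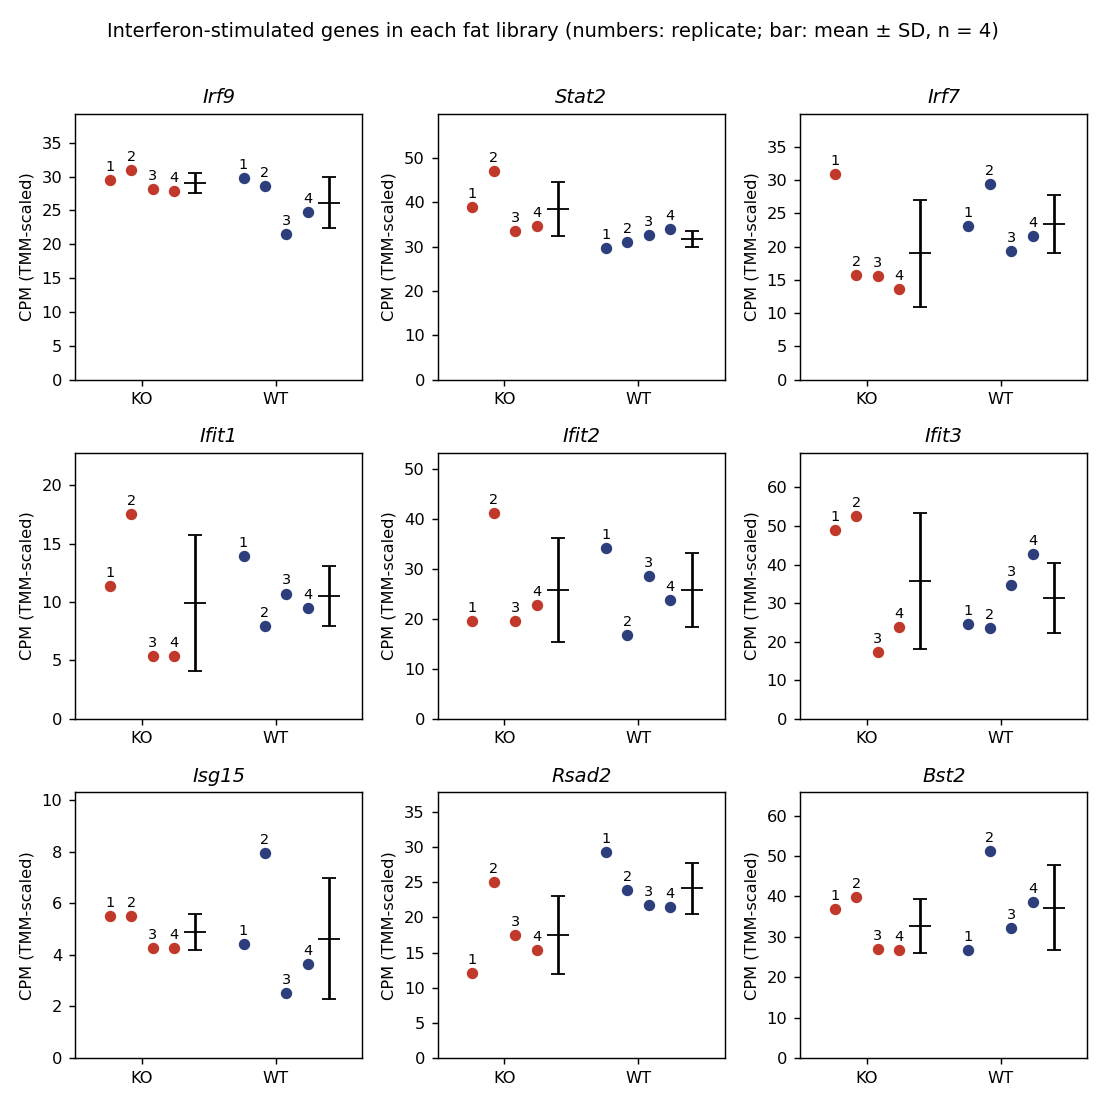
Level of each of the 9 genes in TMM-scaled CPM (vertical axes, starting at 0) in the 4 libraries labelled KO (red, left) and the 4 labelled WT (blue, right); numbers are replicates and the black bars are the mean ± SD. Values overlap between the labels in every panel, and KO2 is the highest library for 5 of the 9 genes. The share of all genes tested with KO2 highest was not counted.

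Irf9 and Stat2 are DNA-binding and transactivating subunits of the type I interferon complex. Irf9 (ENSMUSG00000002325) had 29.4, 30.9, 28.1 and 27.8 CPM in KO1 to KO4, against 29.7, 28.7, 21.4 and 24.8 CPM in WT1 to WT4. The libraries labelled KO lay close together, and the lowest values were those of WT3 and WT4. The means were 29.1 ± 1.41 CPM in libraries labelled KO and 26.2 ± 3.79 CPM in those labelled WT (SD, n = 4 each), a log2 fold change of 0.15 ± 0.15 (SE; 95% interval -0.16 to 0.47; edgeR adjusted p = 0.998; exact two-sided permutation p = 0.257). Without WT3 the value was 0.07.

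Stat2 (ENSMUSG00000040033) had 39.0, 47.0, 33.4 and 34.6 CPM in KO1 to KO4, against 29.7, 31.0, 32.5 and 33.9 CPM in WT1 to WT4. KO1, KO2 and KO4 were above every library labelled WT, and KO3 was between WT3 and WT4. The means were 38.5 ± 6.16 and 31.8 ± 1.82 CPM (SD, n = 4 each) in libraries labelled KO and WT, a log2 fold change of 0.28 ± 0.14 (SE; 95% interval -0.03 to 0.58; edgeR adjusted p = 0.998; exact two-sided permutation p = 0.0571, where 4 against 4 can reach 0.0286). This was the value furthest above 0 among the 9 genes, and it was 0.16 without KO2.

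Irf7 is the factor that amplifies the response by inducing the interferon alpha genes. Irf7 (ENSMUSG00000025498) had 30.9, 15.8, 15.6 and 13.5 CPM in KO1 to KO4, against 23.1, 29.5, 19.3 and 21.5 CPM in WT1 to WT4. KO1 was the highest of all 8 libraries, and the other 3 labelled KO were below every library labelled WT. The log2 fold change was -0.30 ± 0.25 (SE; 95% interval -0.84 to 0.24; edgeR adjusted p = 0.998; exact permutation p = 0.286). Without KO1 it was -0.63 (edgeR adjusted p = 0.972), and without KO4 -0.17.

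The Ifit genes lie side by side on chromosome 19 and encode cytosolic proteins with tetratricopeptide repeats; Ifit1 holds viral RNA whose cap lacks methylation, and Ifit2 and Ifit3 are its relatives. Ifit1 (ENSMUSG00000034459) had 11.4, 17.5, 5.33 and 5.35 CPM in KO1 to KO4, from 31, 51, 15 and 15 reads, against 13.9, 7.96, 10.7 and 9.48 CPM in WT1 to WT4, from 38, 20, 30 and 26 reads. Both the highest and the lowest libraries carried the label KO, with KO2 3.28 times the level of KO3. The log2 fold change was -0.09 ± 0.36 (SE), with a 95% interval from -0.87 to 0.69 (edgeR adjusted p = 0.998). It was 0.12 without KO3 and without KO4, 0.075 without WT1, and -0.52 without KO2.

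Ifit2 (ENSMUSG00000045932) had 19.5, 41.2, 19.6 and 22.8 CPM in KO1 to KO4, against 34.1, 16.7, 28.6 and 23.7 CPM in WT1 to WT4. KO2 was the highest of all 8 libraries, and the other libraries labelled KO sat between WT2 and WT4. The means were equal to 3 digits, 25.8 ± 10.4 CPM in libraries labelled KO and 25.8 ± 7.40 CPM in those labelled WT, and the 95% interval of the log2 fold change ran from -0.60 to 0.60 (edgeR adjusted p = 0.999). The value was 0.11 without KO1 and without KO3, 0.05 without KO4 and without WT3, 0.16 without WT1 and -0.33 without KO2.

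Ifit3 (ENSMUSG00000074896) had 48.9, 52.5, 17.4 and 23.9 CPM in KO1 to KO4, against 24.6, 23.5, 34.7 and 42.7 CPM in WT1 to WT4. KO1 and KO2 were above every library labelled WT, KO3 was below all of them, and KO4 lay among them. The log2 fold change of 0.18 ± 0.37 (SE) had a 95% interval from -0.65 to 1.02 (edgeR adjusted p = 0.998); it was -0.002 without KO1, -0.07 without KO2 and -0.09 with limma-voom sample weights. Of the 50-base words in Ifit3 transcripts (GENCODE M21), 51.2% also occur in Ifit3b, its tandem copy, so reads of these genes cannot be fully told apart. Ifit3b, listed under an older symbol, had 25.7, 28.8, 6.76 and 8.91 CPM in KO1 to KO4, against 16.9, 12.7, 13.6 and 18.6 CPM in WT1 to WT4. KO1 and KO2 were again the highest and KO3 the lowest. In Ifit1, 7.13% of the words also occur in other genes, mainly Ifit1bl2, and in Ifit2 none do (0%).

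Isg15 is a small ubiquitin-like protein that is attached to other proteins and also secreted. Isg15 (ENSMUSG00000035692) was the sparsest of the 9 genes, with 15, 16, 12 and 12 reads in KO1 to KO4, against 12, 20, 7 and 10 reads in WT1 to WT4. These reads came to 5.52, 5.49, 4.27 and 4.28 CPM in KO1 to KO4, against 4.40, 7.96, 2.50 and 3.65 CPM in WT1 to WT4. The libraries labelled WT held both extremes, in WT2 and WT3. The log2 fold change was 0.09 ± 0.35 (SE), with a 95% interval from -0.65 to 0.84 (edgeR adjusted p = 0.998). It was -0.11 without WT3, -0.005 without WT4 and 0.47 without WT2.

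Rsad2, or viperin, is a radical S-adenosylmethionine enzyme that makes a chain-terminating nucleotide. Rsad2 (ENSMUSG00000020641) had 12.1, 25.1, 17.4 and 15.3 CPM in KO1 to KO4, against 29.4, 23.9, 21.8 and 21.5 CPM in WT1 to WT4. KO1, KO3 and KO4 were below every library labelled WT, and KO2 was inside their range. The means were 17.5 ± 5.49 CPM in libraries labelled KO and 24.1 ± 3.64 CPM in those labelled WT (SD, n = 4 each), a log2 fold change of -0.46 ± 0.21 (SE; 95% interval -0.92 to -0.004). The edgeR p was 0.0482 before and 0.998 after adjustment, and the exact permutation p was 0.114. The log2 fold change ranged from -0.32 without KO1 to -0.69 without KO2.

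Bst2, or tetherin, is a membrane protein that ties budding virions to the cell, and in mice it is also displayed by plasmacytoid dendritic cells. Bst2 (ENSMUSG00000046718) had 36.8, 39.8, 27.0 and 26.7 CPM in KO1 to KO4, against 26.8, 51.3, 32.2 and 38.7 CPM in WT1 to WT4. WT2 was the highest library, and KO1, KO2 and KO3 stood between the lowest and highest WT values with KO4 just under them. The log2 fold change of -0.19 ± 0.20 (SE) had a 95% interval from -0.63 to 0.25 (edgeR adjusted p = 0.998), and it was 0.002 without WT2. Markers of plasmacytoid dendritic cells (7 of 9 in the table) summed to 270.4 to 337.3 CPM in libraries labelled KO and 233.2 to 323.7 CPM in those labelled WT, most of it Tcf4, Ccr9 and Irf8. Only 3 of the markers passed the filter on low counts, and Spib, Cox6a2, Pacsin1 and Siglech did not. The sum is therefore no measure of the content of plasmacytoid dendritic cells. Siglech, which defines these cells, had 4 to 16 reads in libraries labelled KO and 4 to 10 in those labelled WT; their part in the Bst2 values was not tested.

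Exon lengths were taken from GENCODE M21 as all exon bases of a gene's annotated transcripts, from 756 bases (Isg15) to 5926 (Stat2). The order of genes below depends in part on that annotation. Per kilobase of exon, Bst2 stood at the top, at 36.1 ± 7.43 CPM per kb in libraries labelled KO and 41.2 ± 11.7 in those labelled WT (SD, n = 4 each). Ifit3, which shares 51.2% of its 50-base words with Ifit3b, came next, at 20.5 ± 10.1 CPM per kb in libraries labelled KO and 18.0 ± 5.20 in those labelled WT. Bst2 and Ifit3 overlapped among the libraries labelled KO (29.6 to 44.1 against 9.98 to 30.1 CPM per kb) and not among those labelled WT (29.7 to 56.9 against 13.5 to 24.5 CPM per kb). The other 7 genes lay between 3.73 (Ifit1) and 6.56 CPM per kb (Ifit2) on average in libraries labelled KO and between 3.96 (Ifit1) and 6.57 CPM per kb (Ifit2) in those labelled WT. In both labels the ranges of neighbours in that order overlapped.

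The summed level of the 9 genes was 233.6, 275.3, 168.2 and 174.4 CPM in KO1 to KO4, against 215.8, 220.5, 203.7 and 220.0 CPM in WT1 to WT4. The means were close, 212.9 ± 51.0 CPM in libraries labelled KO and 215.0 ± 7.80 CPM in those labelled WT, while the libraries labelled KO lay on both sides of all those labelled WT. The spread on the log2 scale was larger among libraries labelled KO for 6 of the 9 genes, where 50.8% of all genes tested had the larger spread there. This difference in spread was not tested. Across all 8 libraries KO2 was the highest for 5 genes (Ifit1, Ifit2, Ifit3, Irf9 and Stat2). The share of all genes tested with KO2 highest was not counted, so the 5 cannot be read as particular to these genes. KO3, KO4 and WT3 were each the lowest for 2 genes. These were Ifit1 and Ifit3 for KO3, Irf7 and Bst2 for KO4, and Irf9 and Isg15 for WT3. The biological coefficient of variation, the spread between mice of a label beyond counting error, was 35.2% for Ifit3, 32.2% for Ifit1, 26.1% for Ifit2, 23.3% for Irf7 and 22.9% for Isg15. It was 19.7% for Bst2, 19.5% for Rsad2, 13.6% for Stat2 and 13.2% for Irf9, beside a median of 16.5% over all genes tested. Muscle markers were high in KO1, KO2 and KO4. With their summed level as a covariate the log2 fold change was -0.61 for Ifit1, -0.30 for Ifit2, -0.14 for Ifit3 and -0.53 for Irf7. It was 0.15 for Irf9, 0.08 for Isg15, 0.23 for Stat2, -0.15 for Bst2 and -0.41 for Rsad2, with 0 of the 9 genes past the threshold. Muscle markers averaged 2105 CPM in libraries labelled KO and 280.4 CPM in those labelled WT. Label and muscle content therefore cannot be fully told apart in this fit. Liver markers were high in KO2, WT1 and WT4; their part in these values was not tested.

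**Figure D2:**
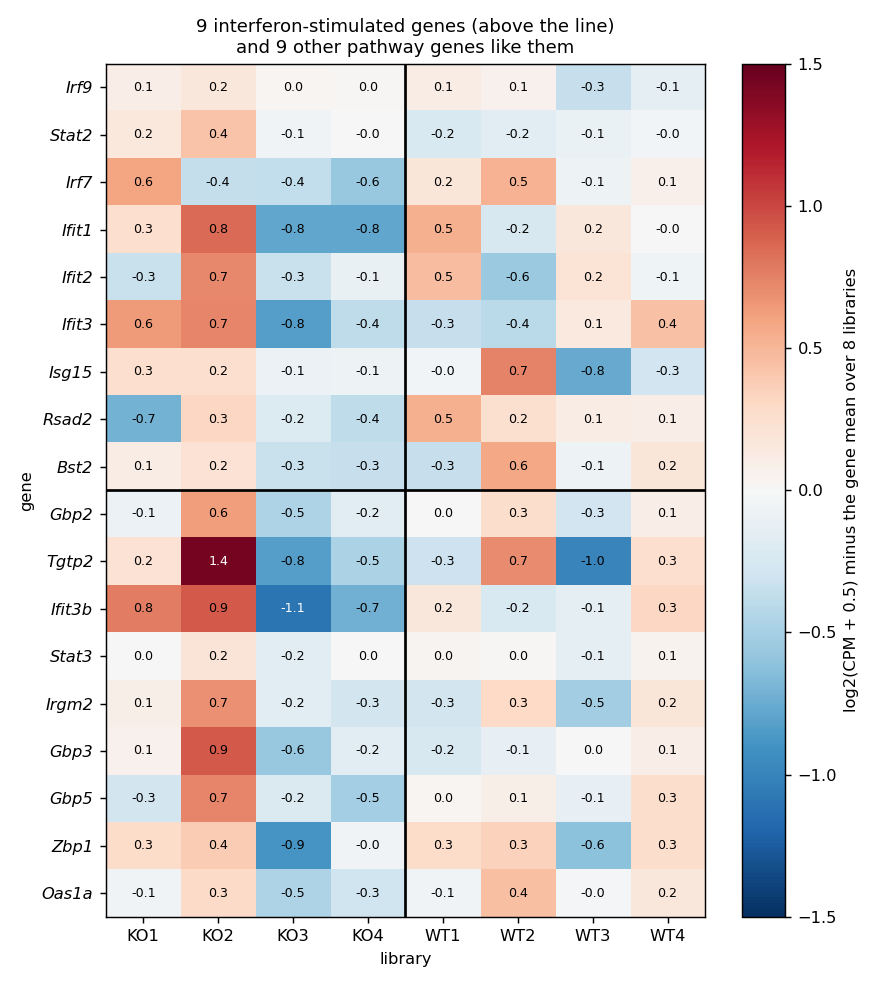
Difference of log2(CPM + 0.5) from the mean of each gene over 8 libraries (colour and printed value), for the 9 genes above the line and 9 other interferon pathway genes with a high mean correlation with them below it, with libraries labelled KO left of those labelled WT. KO2 is above the gene mean in 8 of the 9 upper rows, all but Irf7, and KO3 and KO4 are below it in 8 of the 9, all but Irf9.

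The pairwise correlations of the 9 genes over the libraries had both signs. Over 8 libraries, 25 of the 36 pairs had a positive Pearson r on log2(CPM + 0.5) and 11 a negative one, with a median of 0.21 and a range from -0.39 (Ifit2 and Irf7) to 0.79 (Irf9 and Isg15). In exact permutation tests adjusted over the 36 pairs, 0 passed 0.05 by r and 0 by Spearman's rho, and 3 had an unadjusted p under 0.05 by r. For Irf9 and Isg15, r was 0.79 (exact permutation p = 0.0212, adjusted p = 0.456) and rho was 0.76 (exact permutation p = 0.0368, adjusted p = 0.662), and r was 0.20 without WT3 and WT4. The libraries left out for a pair were those farthest from the median of the gene named first. For Ifit1 and Ifit2, r was 0.73 (exact permutation p = 0.0417, adjusted p = 0.456) and rho was 0.64 (exact permutation p = 0.0962, adjusted p = 0.794), and r was 0.89 without KO3 and KO4. The libraries farthest from the median of Ifit2 were KO2 and WT1, which stayed in. How far this pair rests on KO2 and WT1 was not tested. For Ifit3 and Stat2, r was 0.70 (exact permutation p = 0.0376, adjusted p = 0.456) and rho was 0.62 (exact permutation p = 0.115, adjusted p = 0.794), and r was 0.16 without KO1 and KO2. After the mean of each label was removed, r was 0.81 for Irf9 and Isg15, 0.74 for Ifit1 and Ifit2 and 0.89 for Ifit3 and Stat2. Ifit2 and Ifit3, neighbours on the chromosome, had an r of 0.41 (exact permutation p = 0.306, adjusted p = 0.833) and a rho of 0.50 (exact permutation p = 0.216, adjusted p = 0.795), and r was 0.34 without KO2 and WT1. For Ifit1 and Ifit3, r was 0.72 (exact permutation p = 0.0506, adjusted p = 0.456). Their rho was 0.81 (exact permutation p = 0.0218, adjusted p = 0.662), and r was 0.43 without KO3 and KO4. It was 0.94 within the libraries labelled KO and -0.11 within those labelled WT.

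**Figure D3:**
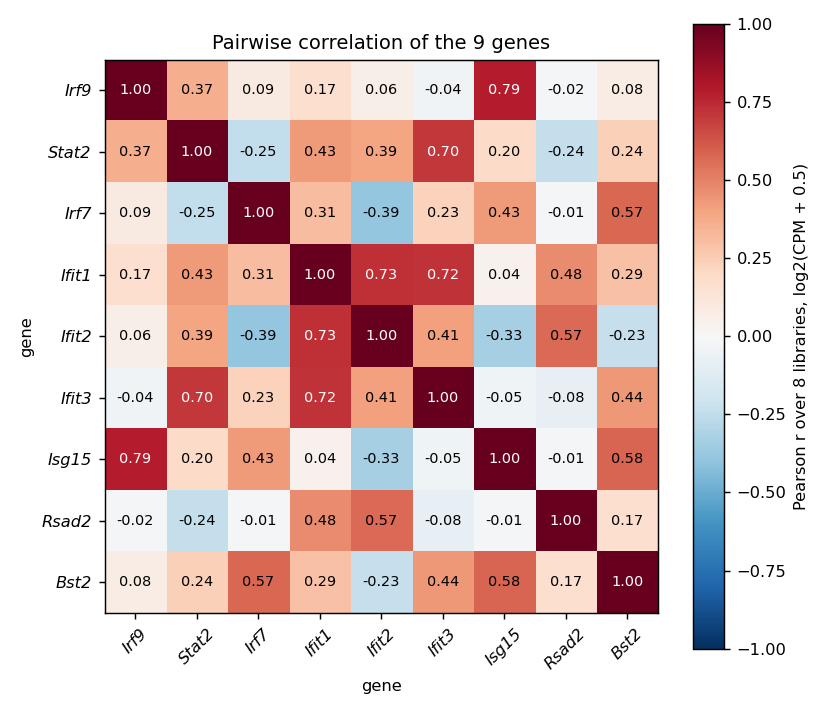
Pearson r over 8 libraries for every pair of the 9 genes, on log2(CPM + 0.5). The values lie between -0.39 and 0.79, with the pairs among Ifit1, Ifit2, Ifit3 and Stat2 all positive.

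The genes whose pattern was most like the 9 were ranked among 14547 other tested genes by their mean Pearson r with them over the 8 libraries, as a description with no test. First was Gm12250, an interferon-inducible GTPase gene that RefSeq also lists as Irgb10, with a mean r of 0.54 and 7.72, 13.0, 1.42 and 1.78 CPM in KO1 to KO4, against 4.77, 5.97, 2.50 and 5.84 CPM in WT1 to WT4. Then came Gm15956, Spin1, Tsc22d3, Atp6ap2, Gpt2, Wee1, Usp22, Adra1b and mt-Tp, with mean r from 0.53 down to 0.51. Tsc22d3, a glucocorticoid-induced leucine zipper gene, had an r of 0.94 with Ifit1 and stood at 79.3 (KO3) to 192 CPM (KO2) in libraries labelled KO and 108 to 153 CPM in those labelled WT. Such an r with Ifit1 was not particular to Tsc22d3. Wee1 had 0.91 and, outside the 10, Npc1 had 0.96. With Irf7 and Isg15, Tsc22d3 had an r of 0.30 and 0.32. None of the 10 most similar genes was in the pathway lists used here (0 of 10). The highest of 109 pathway genes was Gbp2, a guanylate-binding protein gene, at position 17 with a mean r of 0.50, and the pathway genes had a median mean r of 0.12, beside 0.004 over all genes ranked.

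The rest of the pathway is given from receptor to target; the lists share members with each other and, in part, with the 9 genes. Of 10 interferon genes listed, 0 were among the genes counted, so none could be analysed here. Of 5 interferon receptor genes tested, 0 passed over all genes and all 5 log2 fold changes were slightly below 0, from -0.17 to -0.01. Ifnar1, a chain of the type I receptor, averaged 64.2 ± 2.55 CPM in libraries labelled KO and 67.6 ± 7.31 CPM in those labelled WT, and Ifnar2, the other chain, 93.6 ± 13.3 and 96.7 ± 12.6 CPM. Il10rb, which serves the interferon lambda receptor, had -0.17 ± 0.14 (SE) and Ifngr1 -0.03 ± 0.14. With muscle markers in the fit the values were 0.02 for Ifnar1, 0.10 for Ifnar2 and 0.19 for Ifngr1. Of 7 transducers, 5 were positive and 0 passed. Tyk2, the kinase bound to Ifnar1, had 25.7, 24.4, 32.7 and 34.6 CPM in KO1 to KO4, against 34.5, 37.8, 33.2 and 39.0 CPM in WT1 to WT4 (log2 fold change -0.30 ± 0.15, edgeR adjusted p = 0.998). KO4 alone of the libraries labelled KO reached the range of those labelled WT. Jak1 and Jak2 had -0.04 ± 0.11 and 0.14 ± 0.13.

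Interferon regulatory factors had 3 positive and 5 negative values among 8 tested, and 0 passed. At an unadjusted p under 0.05 in the edgeR test there was 1, Irf4, where the share over all genes tested was 4.49%. Irf4, which in adipocytes takes part in lipolysis and thermogenesis, was the furthest from 0, with 20.6, 28.5, 12.1 and 15.7 CPM in KO1 to KO4, against 12.5, 9.55, 12.5 and 9.85 CPM in WT1 to WT4. KO3 lay among the WT values, and the other 3 libraries labelled KO were above all of them. Its log2 fold change was 0.79 ± 0.25 (SE, edgeR adjusted p = 0.998, exact permutation p = 0.0857), 0.53 without KO2 and 0.29 with muscle markers in the fit. Muscle markers were higher on average in libraries labelled KO, so label and muscle content cannot be fully told apart here. The part of muscle in the Irf4 values was not tested. Irf8, a factor of myeloid cells, had -0.22 ± 0.15, Irf2 0.21 ± 0.12 and Irf3, which acts downstream of the nucleic acid sensors, -0.13 ± 0.15. Among 11 inhibitors, 7 were positive and 0 passed. Adar, which edits double-stranded RNA, had 38.6 to 44.8 CPM in libraries labelled KO and 29.7 to 38.6 CPM in those labelled WT. KO1 was just above WT2, with no overlap (0.27 ± 0.13, edgeR adjusted p = 0.998). It was the 1 of 11 inhibitors without overlap, where the share over all genes tested was 2.92%. Of the exon bases of Adar, 16.8% overlap a gene on the other strand, which this library kit cannot separate. Samhd1, which breaks down deoxynucleotides, had 0.26 ± 0.12.

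Of 15 sensors and adaptors tested, 6 were positive, 9 negative and 0 passed. Aim2, a sensor of cytosolic DNA, had 0.34 ± 0.23, and Myd88, Ticam1 and Tlr7 had -0.23 ± 0.19, -0.26 ± 0.23 and -0.23 ± 0.24. Myd88 was -0.11 without WT2, Ticam1 was -0.13 without KO1, and Tlr7 was -0.02 without WT1. The conjugation of Isg15 needs Uba7, Ube2l6 and Herc6 and is undone by Usp18. Ube2l6, the conjugating enzyme, had 18.4, 14.4, 13.5 and 12.1 CPM in KO1 to KO4, against 20.6, 23.1, 16.8 and 22.6 CPM in WT1 to WT4, a log2 fold change of -0.51 ± 0.18 (edgeR adjusted p = 0.998; exact permutation p = 0.0571). Only KO1 reached into the range of the libraries labelled WT. Usp18 had 0.24 ± 0.16, Herc6 0.19 ± 0.25 and Uba7 -0.06 ± 0.17, and Herc6 was -0.01 without KO2.

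**Figure D4:**
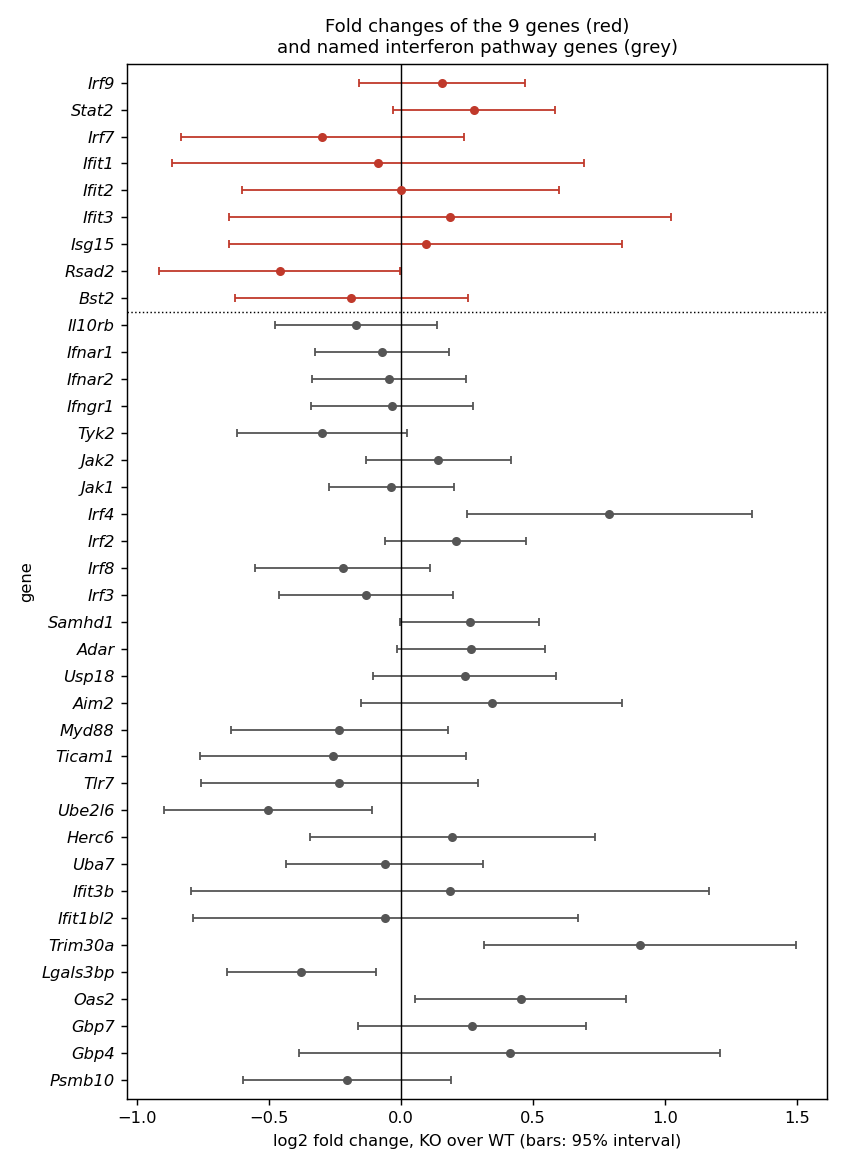
Log2 fold change (KO over WT) with its 95% interval for the 9 genes (red, above the dotted line) and the pathway genes named here (grey). The intervals of 8 of the 9 genes include 0, and that of Rsad2 ends at -0.004.

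Other type I targets were on both sides of 0. Of 56 listed, 49 were tested, of which 28 were positive and 21 negative, with a median of 0.04 and 0 past the threshold over all genes. At an unadjusted p under 0.05 there were 2 higher (Trim30a and Oas2), where 2.71% of all genes tested were higher, and 3 lower (Lgals3bp, Ube2l6 and Oasl1), where 1.77% were lower; Oasl1 was named after its value was seen. Trim30a, a tripartite motif gene of rodents, had 50.4, 114, 54.8 and 49.2 CPM in KO1 to KO4, against 33.4, 39.4, 39.0 and 31.7 CPM in WT1 to WT4. Every library labelled KO was above every one labelled WT, with KO2 far above the rest (log2 fold change 0.90 ± 0.27, edgeR adjusted p = 0.998; 0.52 without KO2). In the authors' deposited table its adjusted p was 0.00273. Of the 50-base words in its transcripts, 5.98% occur in other genes. Lgals3bp, a secreted glycoprotein gene, had 173 to 239 CPM in libraries labelled KO and 251 to 298 CPM in those labelled WT, without overlap (-0.38 ± 0.13, edgeR adjusted p = 0.998). Of the 49 tested, 2 (Trim30a and Lgals3bp) did not overlap between the labels, where the share over all genes tested was 2.92%. Oas2, an oligoadenylate synthase that senses double-stranded RNA, had 14.7 to 20.3 CPM in libraries labelled KO and 10.7 to 15.0 CPM in those labelled WT (0.45 ± 0.19), and Oasl1 had -0.71 ± 0.32, on 3.20 to 4.78 CPM in libraries labelled KO and 4.40 to 10.3 CPM in those labelled WT.

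Targets of interferon gamma had 16 positive and 9 negative values among 25 tested, with a median of 0.11 and 0 past the threshold. Gbp4, a guanylate-binding protein gene, had 36.8, 94.4, 30.9 and 42.4 CPM in KO1 to KO4, against 32.7, 37.0, 34.7 and 49.6 CPM in WT1 to WT4. KO2 alone stood above the libraries labelled WT, and the log2 fold change of 0.41 ± 0.35 was -0.07 without KO2. Gbp7 had 76.2 CPM in KO2 and 36.6 to 52.9 CPM in all other libraries (0.27 ± 0.20, and 0.02 without KO2). Psmb10, a subunit of the immunoproteasome, had -0.21 ± 0.18, ranging from -0.40 without KO1 to -0.11 without KO2.

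**Figure D5:**
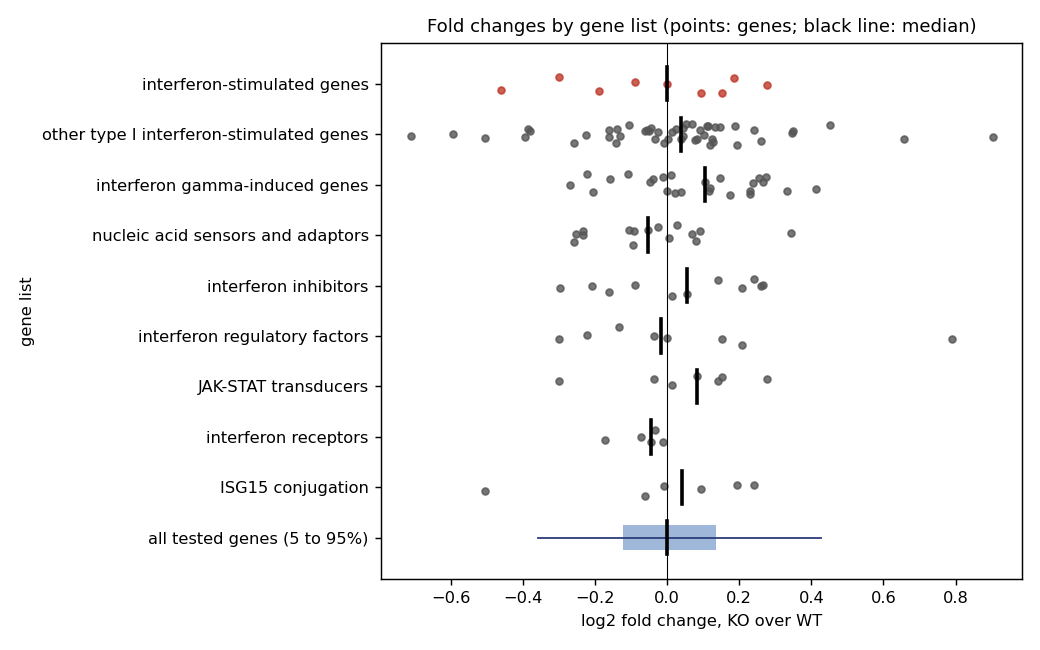
Log2 fold changes (KO over WT) of the tested genes of each list (points) with the list's median (black line), above a row for all tested genes (line: the 5th to the 95th percentile; box: the middle 50%). The medians of all 9 lists drawn lie within 0.11 of 0.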

How the data were processed

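Per the labels' protocols, column-purified and DNase-treated RNA was enriched for poly(A) and prepared with the NEBNext Ultra RNA kit, whose libraries carry no strand. FastQC, Bowtie2, edgeR and the build mm9 are named, without versions, in the submitters' processing notes; no source used here names the counter or the annotation. The authors deposited raw counts per gene and library, with at least 8 reads per gene in total. They also deposited 1 comparison with log2 fold changes and p-values under column names that edgeR uses, per the file headers. Groups and replicate numbers came from the sample titles, and columns were matched by mouse label. Listed genes under an older symbol (10 of them) were matched by identifier or synonym.

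Genes were tested with edgeR 4.0.16 in R 4.3.3 (quasi-likelihood F test, TMM, filterByExpr, robust fit, Benjamini-Hochberg at 0.05) and no term besides the label. The standard error is the size of the log2 fold change divided by the root of F. CPM are TMM-scaled. Exact permutation tests are two-sided, on log2(CPM + 0.5). The steps were tested on simulated data. Libraries of a label differed by a chi-square of at least 4.45 per gene, so none was counted as a copy. Each library carries its own mouse label, and the labels give no batch.

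The 9 genes and the lists were chosen with earlier results of these data known. Named were the 9 genes, up to 4 other genes with the smallest p in each pathway list, and the 10 most similar genes; 1 gene that the rule selects is not reported here. Alternatives were other scaling, filters, DESeq2 1.42.0, the likelihood ratio test, limma-voom (limma 3.58.1), no robust option, an adjusted p of 0.1, muscle or macrophage markers as a covariate, a replicate block, other pseudocounts and each library left out; an exact test with one common dispersion was added after the data were seen. Coordinates are of GRCm38.p6, not of the build of the counts, and apply to the promoter sequences alone.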

Additional observations from a re-analysis of the deposited data

Results flagged for a closer look

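In 8 of 124 groups of 4 values checked, 1 library stood further from the rest than Dixon's 95% limit allows, where chance gives about 1 in 20. Ifit2 was at 41.19 CPM in KO2, against 19.5 to 22.82 CPM in the other libraries labelled KO. Irf7 was at 30.9 CPM in KO1, against 13.55 to 15.79 CPM in the others of that label. Irf3 was also set apart in KO1, at 44.14 CPM against 31.29 to 32.95 CPM. Trim30a was at 114 CPM in KO2 against 49.21 to 54.76 CPM, and Gbp7 at 76.2 CPM in KO2 against 41.6 to 46.35 CPM. Among the libraries labelled WT, WT2 was set apart for 3 summed levels. The nucleic acid sensors and adaptors summed to 292.1 CPM in WT2 against 322 to 325.6 CPM in the others, and the IFIT family to 66.07 CPM against 94.71 to 98.86 CPM. Small intestine markers summed to 552 CPM in WT2 against 10.01 to 99.58 CPM in the other libraries labelled WT; their part in the other values of WT2 was not tested.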

How the results depend on the processing

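None of the 9 genes passed an adjusted p of 0.05 under any scaling, filter, tool, covariate or left-out library tried, at an adjusted p of 0.1, or with the replicate block (0 genes called). Over all genes, 0 were called, with 653 at an unadjusted p under 0.05 (454 with the replicate block); DESeq2's Wald test called 36 (489 unadjusted), edgeR's likelihood ratio test 34 (593 unadjusted) and the added exact test with one common dispersion 436 (1141 unadjusted). The authors' deposited comparison also lists 436. For Rsad2 it and the added exact test both gave an adjusted p of 0.827, and for Irf4 both gave 0.104. Trim30a passed in 1 of 21 alternative settings. With 1 library left out, 0 to 50 were called, the 50 without KO3. The cause of the differences between settings was not tested. The exact permutation of single genes gave 0 of the 9 past its threshold, and the pairs 0 of 36, with pseudocounts of 0.1 and 2 too. Libraries with the same replicate number did not deviate together (r from -0.286 to -0.14), so the numbers were not taken as pairs. No value of Isg15 or Ifit1bl2 was had with at least 20 reads in at least 4 libraries.

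The remaining values are log2 fold changes whose sign turned; their causes were not tested. Ifit2 was 0.021 scaled by library size alone, which moved the median of all genes to 0.024, and 0.003 with the stricter filter. With limma-voom, Ifit3 was -0.09, Ifngr1 0.017 and Ifit3b -0.182. With macrophage markers in the fit, Ifngr1 was 0.006. With muscle markers in the fit, Ifit3 was -0.14, Ifit3b -0.34, Il10rb 0.0, Ifnar1 0.016, Ifnar2 0.097, Ifngr1 0.189, Myd88 0.165, Ticam1 0.186, Herc6 -0.13, Uba7 0.124 and Gbp7 -0.007. With 1 library left out, Ifit1 ranged from -0.523 to 0.118, Ifit2 from -0.327 to 0.161, Ifit3 from -0.067 to 0.412, Isg15 from -0.114 to 0.471 and Bst2 from -0.318 to 0.002. Pathway genes ranged likewise: Ifnar2 -0.149 to 0.022, Ifngr1 -0.097 to 0.102, Jak1 -0.068 to 0.004, Herc6 -0.007 to 0.325, Uba7 -0.19 to 0.024, Ifit3b -0.171 to 0.452, Ifit1bl2 -0.274 to 0.113 and Gbp4 -0.069 to 0.591. Irf9, Stat2, Irf7 and Rsad2 kept their sign under every setting tried. Isg15 had 7 to 20 reads a library, Ifit1bl2 8 to 18 and Ifit1 15 to 51, and depth limits the precision of such values.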
